A study of Caenorhabditis elegans with 4 samples.

Results

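Of 1137 NHR-21 regions in the combined peak list, 285 (25.1%) stood alone in the middle of an autosome. A peak counted as isolated when its midpoint lay in the central 50% of chromosome II, III, IV or V and the nearest other combined interval was more than 5000 bp away, edge to edge. Chromosomes I and X did not enter this rule. The members were chosen by their position and spacing in the combined list, so their positions, gaps, widths and combined q values are given as a description, while the lists of the single ChIP replicates were not used in the choice.

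NHR-21 was mapped by ChIP-seq in whole L2 hermaphrodites of *Caenorhabditis elegans* strain OP361, kept at 20 °C and fixed in 2% formaldehyde. The animals carry the unc119(ed3) mutation and the integrated transgene wgIs361, an nhr-21 fusion to TY1, GFP and 3xFLAG with an unc119 marker, which was introduced by bombardment and outcrossed 3 times. The antibody against GFP therefore collected the tagged transgene product from all cells that made it, and no strain without the tag was analysed here. The labels give 2 ChIP and 2 Input libraries of this one genotype and stage, and the free-text descriptions name the ChIP libraries as input and the Input libraries as ChIP DNA. Titles and source names were followed.

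Nuclear hormone receptors bind DNA through a zinc-finger domain and many respond to small lipophilic ligands through a second domain. The family is far larger in nematodes than in mammals, and the ligands of most worm members are unknown. In *C. elegans* the central parts of the autosomes recombine little and hold many of the conserved and broadly used genes, whereas the arms recombine more. A peak that stands alone is a simple case to follow from a combined call back to each library. No other interval of the combined list lies close enough to be mistaken for it. Regions that only the replicate lists hold can still lie beside it, which was seen for 3 members.

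Each list gives intervals with a q value and no reads, which leaves the depth of the libraries unknown. A q value ranks peaks within its list and does not measure occupancy, and "strong" below means a small q value. Coordinates are WormBase WS180, counted from 1. No genome sequence or annotation of that build was at hand, so peaks are given by position and neither sequences nor neighbouring genes are printed. Shares carry 95% Wilson intervals, which cover counting error alone and treat peaks as independent. The labels do not state if the replicates are separate cultures.

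Isolated peaks made up 56.0% of the 509 peaks in the 4 autosome centres. Chromosome V held 89, IV 72, III 70 and II 54. Per megabase of centre this was 10.2 on III, 8.57 on V, 8.33 on IV and 7.19 on II. The share of a chromosome's centre peaks that stood alone was 65.0% on V, 55.1% on III, 52.4% on II and 50.7% on IV. The centres ran from 3756539 to 11269618 on II, 3429950 to 10289851 on III, 4319702 to 12959106 on IV and 5193671 to 15581012 on V.

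Most members were far from any other peak, well beyond the limit that chose them. The median gap to the nearest combined interval was 34002 bp, and the median on the farther side was 103062 bp. The gap exceeded 20 kb for 192 members (67.4%) and 100 kb for 31. Among those past 20 kb, 94 had a gap of up to 50 kb, and at the other end 52 members lay between 5 and 10 kb from a neighbour. The most isolated member was a weak and narrow peak, V:10043210-10043599, 390 bp wide with q = 1.47e-05, whose nearest neighbour was 248497 bp away. It was found in neither replicate.

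The degree of isolation showed little relation to how strong or wide a member was. Spearman's rho between gap and −log10 q was -0.06 over the 285 members, which come from the same call and share its libraries. Median width was 635 bp for gaps up to 10 kb, 584 bp up to 20 kb, 582 bp up to 50 kb, 621 bp up to 100 kb and 572 bp beyond. The share found in at least 1 replicate in the same 5 classes was 53.8%, 63.4%, 57.4%, 50.7% and 58.1%, and the intervals of all 5 classes overlapped.

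Values next to the limits of the rule were as follows. Just inside the gap limit were III:3875606-3876065 (q = 1.31e-05), 5163 bp from its neighbour, and II:7272576-7272789 (q = 1.05e-05), at 5180 bp. Just outside it were IV:4720544-4720820 (q = 1.19e-12), at 4555 bp, and II:6842434-6843280 (q = 6.88e-13), at 4506 bp. No centre peak had a nearest gap between 4555 and 5163 bp, so a limit set anywhere in that range picks the same members. At the edge of a centre, the nearest member was III:3435123-3435553, whose midpoint was 5388 bp inside, and the nearest isolated peak outside was III:10298200-10299286, at 8892 bp.

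Members were mostly narrow. The median width was 605 bp (interquartile range 419 to 1060 bp) and the members covered 278 kb in all. The median was 804.5 bp for the 224 closely spaced peaks of the same centres, 665 bp for the 262 peaks on the arms of II to V, 765 bp for the 234 peaks on X and 690 bp over the whole list. The median −log10 q of the members was 7.33 (5.11 to 13.3), against 8.93 for closely spaced centre peaks, 8.25 on the arms, 8.20 on X and 7.87 over the whole list. Past a threshold of q = 1e-10 were 103 members (36.1%) and 100 closely spaced centre peaks (44.6%). The difference was -8.50 percentage points with a 95% Newcombe interval of -17.0 to 0.06. The same threshold was passed by 36.3% of peaks on the arms, 41.9% on X and 39.2% over the whole list (446 of 1137). The share of the members was thus close to that of the arms. Spacing was read from the list that gave the widths and q values, and the caller can join or split intervals, so these differences are descriptions and were not tested.

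By width, the members spanned several classes. Of them, 64 were at most 400 bp wide, 128 between 400 and 800 bp, 54 between 800 and 1600 bp, and 39 wider than that. The widest class was also the strongest, with a median −log10 q of 19.4 against 5.61 in the narrowest. Spearman's rho between width and −log10 q was 0.42 over the members and 0.45 over all 1137 peaks. The narrowest member, II:6190934-6190978, was 45 bp wide (q = 5.19e-05) and was found in neither replicate.

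Of the 10 members with the smallest q values, 7 lay on V and 1 each on II, III and IV, and all 10 were found in both replicates. The strongest was II:8811125-8814695, 3571 bp wide, with a combined q of 7.07e-151, and q = 5.52e-46 in replicate 1 and 1.33e-77 in replicate 2. The strongest on V was V:8038843-8041664, 2822 bp wide, with q = 3.61e-135, 3.78e-54 and 9.13e-88 in the same order. This peak had no combined neighbour within 180374 bp, and among the 10 it was the most isolated.

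A pair of strong members lay on V less than 50 kb apart. V:6220702-6230162 was the widest member at 9461 bp, and replicate 1 covered 97.5% and replicate 2 99.3% of it with a single region each. V:6275170-6278830 (q = 1.53e-122) was called as 1 region in replicate 1 (q = 1.24e-46) and as 2 in replicate 2, the best with q = 1.08e-69. Each library thus covered both peaks over at least 90.1% of their width.

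The other strong members on V were V:12352769-12355224 (q = 5.67e-96), V:7431876-7437895 (q = 1.01e-89), V:13907407-13909799 (q = 4.40e-80) and V:11146781-11148569 (q = 1.43e-79). Of these, V:7431876-7437895 was split into 2 regions in each replicate, and it was covered to 72.2% by replicate 1 and to 87.8% by replicate 2. V:13907407-13909799 stood 118743 bp from its nearest neighbour and had q = 1.02e-36 in replicate 1 and 3.50e-42 in replicate 2.

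The strongest members of the remaining chromosomes had different shapes. III:4491180-4498223 was broad, at 7044 bp (q = 1.28e-67 combined, 9.78e-23 in replicate 1, 5.75e-39 in replicate 2). IV:9867799-9868445 was compact, at 647 bp (q = 3.27e-65, 2.53e-30 and 1.37e-51), and was the narrowest of the 10. These 2 peaks thus had similar combined q values and very different widths. Over all members, 5 were wider than 5 kb, and 4 of them were found in both replicates, the exception being V:14363859-14369768.

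**Figure D1:**
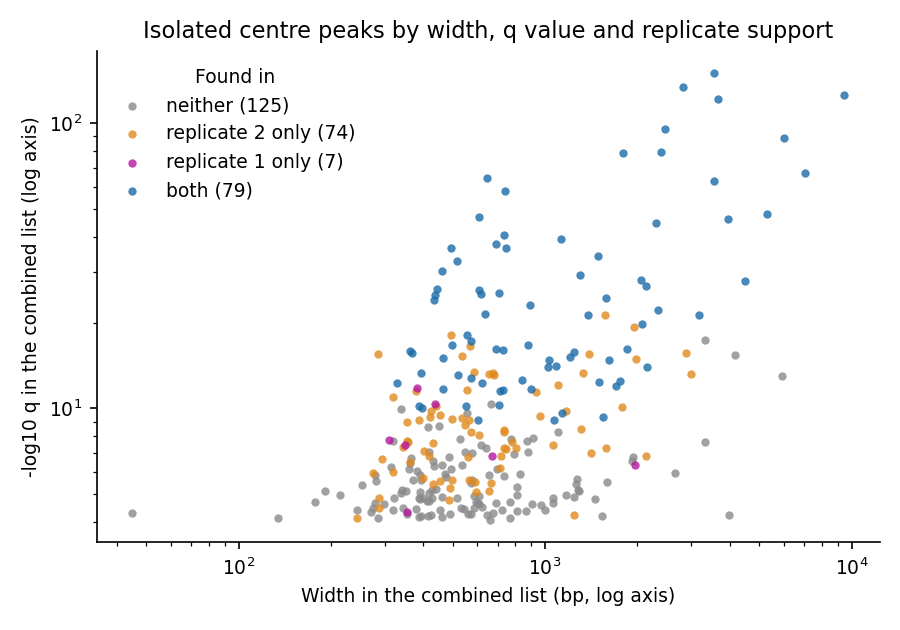
Width (bp) against −log10 q in the combined list, both on log axes, for the 285 isolated centre peaks, each point a peak coloured by the replicate lists in which it was found. The 79 peaks found in both replicates fill the upper part of the plot (median −log10 q 21.2) and the 125 found in neither the lower part (median 5.07), over overlapping widths.

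Each member was then looked up in the replicate lists to ask how many isolated calls rest on a region seen in a single library. Replicate 1 held 86 members, or 30.2% (25.1 to 35.7%), where 34.0% of all combined peaks were found. Replicate 2 held 153, or 53.7% (47.9 to 59.4%), against 55.9% of all combined peaks. At least 1 replicate held 160, or 56.1% (50.3 to 61.8%), against 57.9%, and both held 79, or 27.7% (22.8 to 33.2%), against 32.1%. All 4 background shares, which include the members, lay inside the members' intervals, so isolated peaks were recovered at about the rate of the list as a whole. The sources at hand do not say how the combined list was built, and if it pooled these libraries it is not independent of their own lists.

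Support followed the combined q value closely. Members found in both replicates had a median −log10 q of 21.2 and a median width of 896 bp, those found in replicate 2 alone 8.17 and 566.5 bp, and those found in neither 5.07 and 530 bp. The 38 strongest members were all found in both replicates. Of the stronger 142 members, 126 were found in at least 1 replicate and 79 in both. Of the weaker 143, 34 were found in 1 replicate and 0 in both. Taking 3 of 143 as a rough upper limit allows a share in both of up to 2.10%. This limit is not a Wilson interval. Combined q values of at most 1e-10 were thus accompanied by a replicate call in 99 of 103 members. The whole list behaved much the same when split into 10 groups by q value. Of all combined peaks, 99.1%, 99.1%, 94.7% and 90.3% were found in the 4 strongest groups, which reach q = 1.31e-10. In the weakest group 10.6% were found.

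The members found in neither replicate in spite of a q value of at most 1e-10 were 4, of which 3 lay on II. They were II:9282627-9285949 (q = 3.51e-18, 3323 bp), II:9617020-9621171 (q = 3.47e-16, 4152 bp), V:14363859-14369768 (q = 1.09e-13, 5910 bp) and II:10600507-10601172 (q = 4.51e-11, 666 bp). The first 3 were more than 5 times as wide as the median member. Of the members found in replicate 2 alone, the 3 strongest also lay on II. II:5660833-5662404 had q = 4.71e-22 in the combined list and 2.58e-06 in replicate 2, II:10388851-10390800 had 4.12e-20 and 4.22e-05, and II:8561130-8561623 had 6.73e-19 and 3.27e-10.

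Replicate 1 alone held 7 members, or 2.46% (1.19 to 4.98%), against 22 of all 1137 combined peaks, or 1.93%. The members were thus near the share of the whole list. The strongest of the 7 members, II:8184941-8185322, was 382 bp wide. Its q value was 1.57e-12 in the combined list and 1.47e-05 in replicate 1. The next were III:8903919-8904356 (4.15e-11 and 8.74e-07) and V:6630813-6631121 (1.89e-08 and 2.06e-06). The remaining 4 had combined q values from 3.38e-08 to 4.52e-05. The last of them, III:9631223-9631575, had a smaller q value in replicate 1 (3.94e-07) than in the combined list. The replicate 1 region overlapping V:8604756-8606720 covered 22.9% of it, the least among these 7, and the others were covered to at least 66.0%.

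Without regard to q value, isolated peaks were found less often than closely spaced peaks of the same centres. The size of this difference depended on the gap limit, and at 5000 bp its interval included 0. The difference shrank or changed sign once q values were taken into account. The share found in at least 1 replicate was 56.1% against 62.9% (141 of 224), a difference of -6.81 points with a 95% Newcombe interval of -15.2 to 1.80. It was -5.54 points (-13.7 to 2.63) in replicate 1 and -7.48 points (-15.9 to 1.18) in replicate 2. With a gap limit of 2000 bp it was -14.0 points (-22.5 to -4.78), with 193 of 352 isolated and 108 of 157 closely spaced peaks found, and this interval did not include 0. Weighted over 10 groups of about equal size by combined q, the difference was 0.96 points at 5000 bp and -1.70 points at 2000 bp. Among peaks with q at most 1e-10 the difference was 3.12 points, again with isolated peaks higher. No interval is given for this difference or for the weighted ones, so their signs are a description only. Against the arms the difference was 0.80 points (-7.48 to 9.07) for at least 1 replicate and -7.78 points (-15.5 to 0.01) for both. Against X it was -8.39 points (-16.6 to 0.08) for at least 1 replicate, -9.56 points (-17.8 to -1.03) for replicate 2 and -8.18 points (-16.2 to -0.15) for both, and the last 2 intervals did not include 0. The comparisons with the arms and X were not weighted by q value.

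Within the 10 groups, the found share of isolated peaks fell from 23 of 23 in the strongest group to 20 of 24 in the 5th, 18 of 31 in the 6th and 7 of 27 in the 7th. It was 4 of 36 and 4 of 37 in the last 2. Closely spaced peaks gave 20 of 21, 14 of 16, 15 of 25 and 10 of 28 in groups 1, 5, 6 and 7 and 1 of 11 and 2 of 21 in the last 2. The intervals of both kinds of peak overlapped in every group. The steepest loss of support lay between q = 1.35e-10 and 1.51e-06. Replicate 1 was the first to lose members, with 14 of 23 found in the 4th group and 4 of 24 in the 5th, where replicate 2 still held 20.

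**Figure D2:**
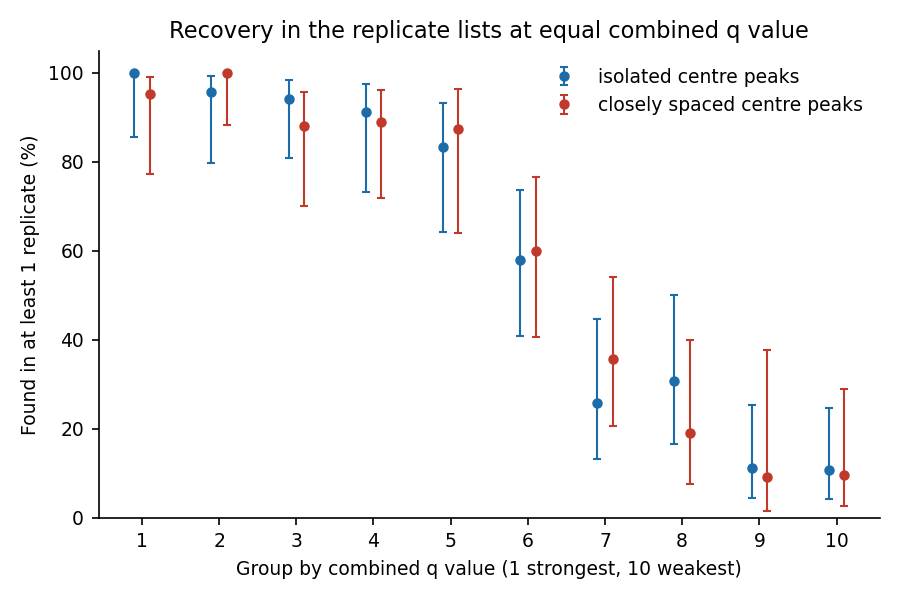
Share of peaks found in at least 1 replicate (%, bars are 95% Wilson intervals) in 10 groups of the combined list by q value, from the strongest to the weakest, for isolated and closely spaced centre peaks. Both kinds fall together from 95.2% or more in group 1 to 10.8% and 9.52% in group 10.

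Isolated peaks on II were found in the replicates less often than those on the other chromosomes. On II, 22 of 54 were found in at least 1 replicate, or 40.7% (28.7 to 54.0%), against 55 of 89 or 61.8% (51.4 to 71.2%) on V, 43 of 70 or 61.4% (49.7 to 72.0%) on III and 40 of 72 or 55.6% (44.1 to 66.5%) on IV. The members on II were not the weakest in the combined list, with a median −log10 q of 8.22 against 8.64 on III, 7.64 on V and 6.72 on IV. Combined peaks outside the members, taken in the same groups by q value, were found at 57.9% for the strengths seen on II, and the difference of II from them was -17.2 points. III, IV and V lay 5.71, 11.6 and 6.40 points above. Because these comparison peaks include peaks on chromosomes I and II, their level is not that of III to V alone.

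The gap was widest among weak peaks. Of the members with q above 1e-10, 1 of 30 on II was found in a replicate, or 3.33% (0.59 to 16.7%), against 60 of 152 or 39.5% (32.1 to 47.4%) on III to V. These intervals did not overlap. Weak closely spaced peaks on II were found in 7 of 27 cases, or 25.9% (13.2 to 44.7%), and weak peaks on the arms of II in 2 of 39, or 5.13% (1.42 to 16.9%). Low recovery of weak peaks was therefore also seen on the arms of II, and whether isolated peaks on II differ from the rest of that chromosome was not tested. Among strong members, 21 of 24 on II were found, or 87.5% (69.0 to 95.7%), against 78 of 79, or 98.7% (93.2 to 99.8%), on III to V. Lower shares on II were also seen outside the members. Strong closely spaced peaks were found in 18 of 22 cases on II (81.8%) and 75 of 78 on III to V (96.2%). Strong arm peaks were found in 13 of 16 cases on II (81.25%) and 79 of 79 on III to V.

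Where members on II were found, their combined q value was further from the replicate's than elsewhere. The −log10 q value in the combined list was 1.93 times that in replicate 2 as a median over 21 members on II (interquartile range 1.72 to 2.67). The ratio was 1.58 on III, 1.47 on V and 1.27 on IV. Against replicate 1 it was 3.29 on II (10 members, 2.87 to 4.37), 2.24 on III, 2.23 on IV and 2.35 on V. Closely spaced peaks gave the same order of II against the others, at 2.18 on II against 1.44 to 1.76 on III to V for replicate 2. The ratio compares lists whose depth is unknown, and the cause of the difference was not tested.

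**Figure D3:**
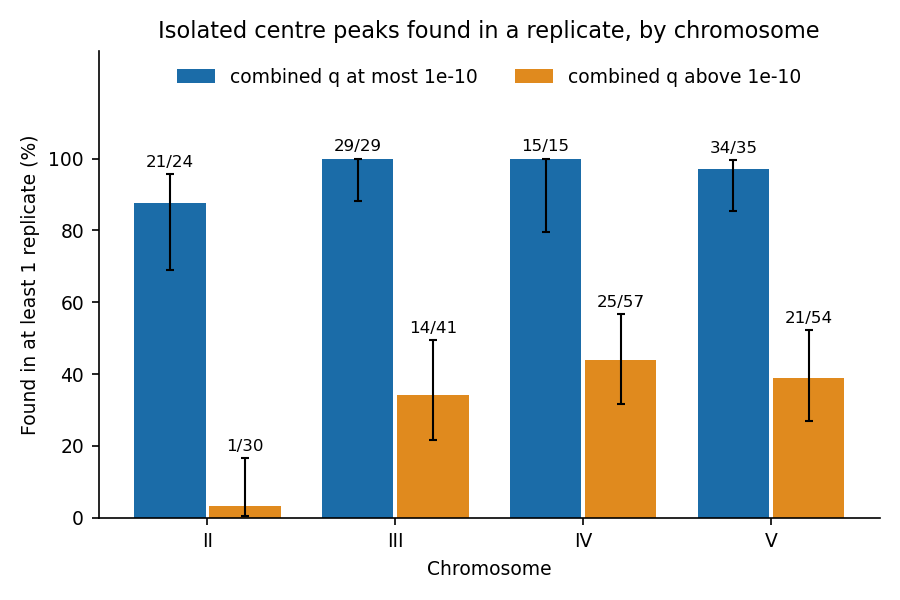
Share of isolated centre peaks found in at least 1 replicate (%, bars with 95% Wilson intervals, counts above) on each chromosome, split by a combined q value of 1e-10. Among the weaker peaks 1 of 30 was found on II, against 14 of 41 on III, 25 of 57 on IV and 21 of 54 on V.

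The lowest shares in replicate 1 were those of IV, with 13 of 72 members (18.1%), and II, with 10 of 54 (18.5%), against 26 of 70 (37.1%) on III and 37 of 89 (41.6%) on V. In replicate 2 the share was 38.9% on II (21 members) and 54.2% on IV (39 members), against 57.1% for III and 59.6% for V. Members on IV were weaker in the combined list, and 15 of 72 had q at most 1e-10. Peaks outside the members at the same q values were found in replicate 1 at 20.4% for IV and 37.9% for II. The difference of the members from this level in replicate 1 was -2.38 points on IV, -19.4 points on II, 4.56 points on III and 7.03 points on V. Closely spaced centre peaks, not matched by q value, were found in replicate 1 at 14.3% on II (7 of 49) and 38.6% on IV (27 of 70). Their shares were 42.1% on III and 45.8% on V. The low share on II was thus seen in both kinds of centre peak. Of the closely spaced peaks on IV, 32 of 70 had q at most 1e-10.

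For the 79 members found in both replicates, the replicates ranked the peaks alike. Spearman's rho between the q values was 0.87 over these 79 peaks and 0.84 over all 365 combined peaks found in both, as a description, since the peaks of a library share its depth and control. Replicate 2 gave the higher −log10 q for 73 of the 79 (92.4%), with a median of 11.4 against 7.53 in replicate 1 and a median ratio of 1.50. Over all combined peaks found in both it did so for 322 of 365 (88.2%), with medians of 12.1 and 8.02 and a median ratio of 1.39. The members were thus near the whole list in this respect. The depth of both libraries is unknown, and the cause of this ratio was not tested.

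The ranks differed most, and by the same number of places, at 2 peaks. II:6345068-6349034 was 3967 bp wide with a combined q of 9.60e-47. It was 70th of the 79 in replicate 1 (q = 1.51e-05) and 29th in replicate 2 (q = 8.36e-18). V:6514609-6517777 was 78th and 37th (q = 4.20e-05 and 1.17e-12). The opposite order was seen at III:6144359-6148855, which was 39th in replicate 1 and 69th in replicate 2 and was split into 2 regions in each, and at V:11344183-11345210, 50th and 77th. The first 3 of these peaks were wider than 3 kb.

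**Figure D4:**
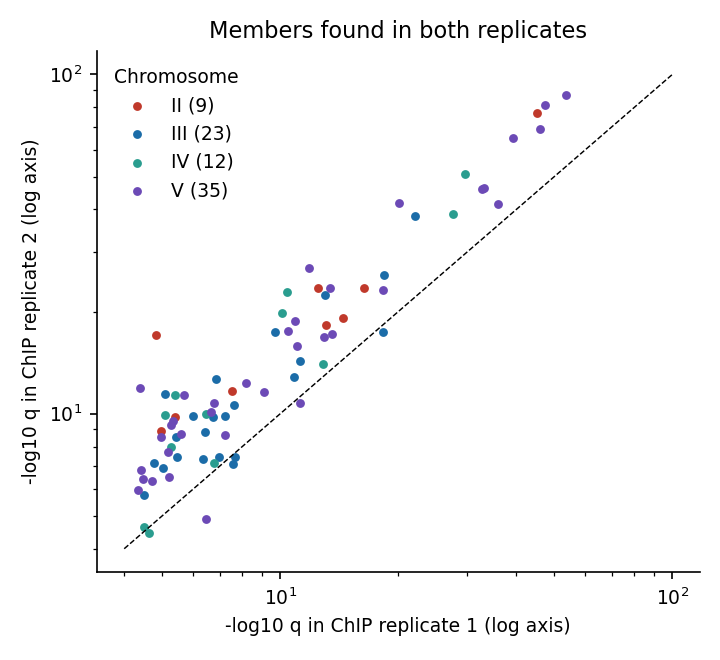
−log10 q in replicate 1 against replicate 2, both on log axes, for the 79 isolated centre peaks found in both, coloured by chromosome; the dashed line marks equal values. Points lie above the line for 73 of the 79 peaks and follow one trend (Spearman's rho 0.87). Over all combined peaks found in both, replicate 2 was higher for 322 of 365.

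The replicate regions lay wholly inside the combined interval for 62 of 86 members found in replicate 1 and for 81 of 153 found in replicate 2. In replicate 1, 83 of 86 found members were matched by a single region, and in replicate 2, 149 of 153. Closely spaced centre peaks were much the same, with 77 of 80 and 134 of 137 matched by a single region. Their replicate regions lay wholly inside for 66 of 80 and 82 of 137. No member was split into more than 2 regions in either replicate. The matching region was centred a median of 39 bp from the middle of the combined interval in replicate 1 and 26 bp in replicate 2, and for 90% of the members within 458.5 and 234.8 bp. Replicate 1 covered a median of 82.1% of the member (67.6 to 91.6%) and replicate 2 90.1% (79.3 to 96.6%). The regions were narrower than the members they matched, with medians of 600.5 against 792.5 bp in replicate 1 and 594 against 693 bp in replicate 2.

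Few members had a replicate region beside them that did not overlap them. No replicate region other than those overlapping the member lay within 5 kb for 282 of the 285 members. Of the 285, however, 125 were found in neither replicate, so they were absent from these lists and not alone in them. Of the 153 members found in replicate 2, 2 had another replicate 2 region within 5 kb, or 1.31% (0.36 to 4.64%), against 101 of 137 closely spaced peaks, or 73.7% (65.8 to 80.4%). In replicate 1 it was 2 of 86 against 40 of 80. All but 6 replicate 1 and 11 replicate 2 regions of the whole series overlap a combined interval, so this contrast follows largely from the rule.

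The exceptions were 3 members. The first 2 flank the same stretch of II: the strongest member, II:8811125-8814695, and II:8822156-8823360 (q = 6.77e-16 combined, 4.14e-06 in replicate 1, 1.62e-10 in replicate 2), which are each other's nearest combined neighbours at 7460 bp. Between them, replicate 1 held 8816917 to 8817866 (q = 9.34e-09) and 8818070 to 8821513 (q = 2.01e-96), and replicate 2 held 8816969 to 8817800 (q = 9.51e-14) and 8818077 to 8821496 (q = 1.66e-165). None of these 4 regions overlapped a combined interval. The larger one had a smaller q value than the strongest member itself in each replicate and ended 642 bp (replicate 1) and 659 bp (replicate 2) before the second member. The strongest isolated peak of the combined list was thus one of 4 called regions within about 12 kb in each replicate. The third exception was the weak peak IV:11489491-11490298 (q = 1.07e-05), with a weak replicate 2 region (q = 1.62e-05) 3546 bp away.

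**Figure D5:**
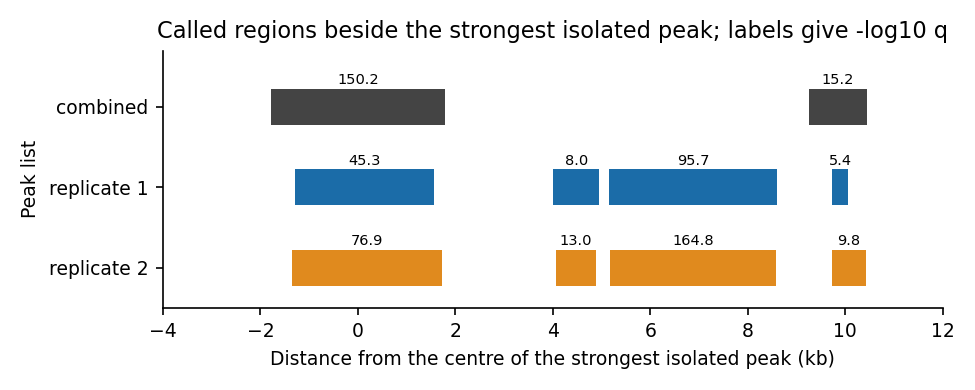
Called regions in the combined list and in each ChIP replicate around the strongest isolated peak, as distance from its centre (kb), with −log10 q above each bar. Both replicates hold a region from about 5.16 to 8.60 kb (−log10 q 95.7 and 164.8) where the combined list holds none between its 2 intervals.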

How the data were processed

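Per the labels, ChIP and Input were each sampled in 2 libraries, and peak lists of the 2 ChIP replicates and of a combined call, 3 lists in all, were analysed. The Input libraries entered no comparison. Per the file headers, intervals are on WormBase WS180. The value the authors deposited for each interval is a q value (adjusted p-value), and the source column names PeakSeq. Not given in the sources used here: aligner, caller settings, control and the way of combining replicates. PeakSeq q values fall as reads increase, and depth is unknown.

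The 1320 lines of replicate 2 held 760 distinct intervals and gave 662 regions after overlapping lines were joined under their smallest q value. Replicate 1 held 409 regions. Found meant at least 1 bp of overlap, and q values were paired by largest overlap. Chromosome length was the largest interval end over the lists. Expected shares at equal q value came from 10 groups of the combined list. No test was run, because regions are not replicates and the ChIP libraries form 1 group. Intervals are Wilson or Newcombe intervals at 95%. Functions were checked on simulated data. Python 3.11.15, numpy 2.4.6, pandas 2.3.3, SciPy 1.17.1 and matplotlib 3.10.9 were used.

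The members and comparisons were chosen with earlier results of these data known. Peaks were named by a written rule: the 10 smallest q values, the strongest of each chromosome and support class, extremes of width, gap and rank difference, those next to the limits, and those beside strong replicate regions missing from the combined list. Further peaks of the support classes and the splits by chromosome and q value were chosen after their values were seen. Alternatives covered the overlap rule, the gap limit, a stricter list, unmerged lines, all 3 lists for isolation, chromosome II left out and each replicate left out. The gap limits weighted by q value were added after seeing the data.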

Additional observations from a re-analysis of the deposited data

How the results depend on the processing

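Alternatives gave 61 values. Of these, 49 were counted as unchanged, 9 moved outside the counting interval of the reported value and 3 changed sign. Unchanged meant inside that interval, or within 1.5 times for the number of members. The difference from closely spaced peaks at a gap limit of 2000 bp was counted so. Its own interval, -22.5 to -4.78 points, did not include 0, unlike the reported one. Rank agreement has no interval and stayed at 0.87 when paired by smallest q value. Leaving replicate 2 lines unmerged cannot change whether a peak is found by 1 bp of overlap. The shares under that alternative are therefore among the 49 by construction. With centres within 200 bp as the overlap rule, the share found was 23.9% in replicate 1, 46.3% in replicate 2, 49.8% in at least 1 and 20.4% in both. With combined q at most 1e-10 these were 74.8%, 94.2%, 96.1% and 72.8%, as the stricter list leaves out weak peaks by construction. The share found in at least 1 replicate was 30.2% without replicate 2 and 53.7% without replicate 1. The difference from closely spaced peaks, -6.81 points, changed sign to 3.12 points with combined q at most 1e-10 and to 0.96 points when weighted over 10 groups by q value. These 2 values are given without an interval. The difference was -7.48 points without replicate 1 and -5.54 points without replicate 2, -14.0 points with a gap limit of 2000 bp and -4.58 points with 10000 bp. Weighted by q value, an alternative chosen after seeing the data, these 2 limits gave -1.70 and 1.88 points. A gap limit of 2000 bp gave 352 members and one of 10000 bp gave 233, with median widths of 607.5 and 594 bp. Judging isolation over all 3 lists left 282 members.

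No paired analysis was possible because the Input libraries have no list here and no result comes from a test between groups. Unknown depth limits every comparison between lists, and no list of a strain without the tag shows which calls are background.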
